A study of Brassica rapa subsp. pekinensis with 6 samples.

Results

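The miRNAs of Brassica rapa that miRBase, the public registry of miRNAs, holds as miR9408 to miR9410 and miR9552 to miR9569 were followed in germinated Chinese cabbage seeds with and without vernalization. Members were taken by the number in the name, whatever its species prefix, and the rule used no measured value. All members listed carried the prefix bra, for B. rapa. Of the 21 numbers in the ranges, 13 were listed, with 26 of the 889 distinct mature sequences of the table. The numbers that were not listed were miR9409, miR9410, miR9560, miR9561 and miR9564 to miR9567, and nothing is said of them here.

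Small RNA was sequenced in 6 libraries, 3 per group. The Ver group held germinated seeds that were kept in a refrigerator at 4 °C for 25 days in the dark. The Nor group held germinated seeds that were kept at room temperature for about 48 h in the dark and had no cold treatment. Both groups came from the double haploid line FT, which was derived from the variety Fukuda 50. The study took 1 culture dish of seeds as a biological replicate, and it does not state whether the groups shared dishes. Both groups were taken when they had reached the same length, so they differed in temperature and in time after germination, and these cannot be told apart. Whole germinated seeds were used, so fewer cells with an RNA and less of that RNA per cell cannot be told apart either.

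In plants, a miRNA is cut by a Dicer-like enzyme from a hairpin that forms in a longer transcript. One strand of the short duplex is loaded into an Argonaute protein and guides it to matching mRNAs, which are cut or translated less. Besides the families that all land plants share, each lineage has young miRNAs of its own, which tend to be scarce, are often cut imprecisely and mostly have no known target. The numbers described here belong to the lineage-specific kind and were registered for B. rapa, and no target was examined for them here.

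The 9 sequences that passed the test between the groups are shown first, since the results turn on them. They are written 5′ to 3′ as the deposited table gives them, with T for U, and the capitals mark the seed, bases 2 to 8, which has a large part in target recognition.
miR9408-5p: cAACAGTCtcaggatggaaaa
miR9408-3p: tTTCATCTtagagaatgttgtt
MIR9552b-p5: cGGTGATGaagaagctagcgc
miR9552b-3p: tGACCGAGtagaccgatagtc
miR9556-5p: gTCAATTGgtgttagtagt
MIR9563a-p5: gTTCTTAGcggaatataagaaacc
MIR9563a-p3: tTAGTTAAaagttaagagacc
MIR9568-p5: aAGAGATCcgcattaatcatg
miR9569-3p: aCACAGGAacaatactaactcatt
No seed was shared, and the 26 sequences had 26 distinct seeds. In these names 5p or p5 stands for the 5′ arm of the hairpin and 3p or p3 for the 3′ arm, and the forms p5 and p3 mark a sequence listed as new. MIR9568-p3 is such a form although miRBase holds miR9568-3p, and the 2 were listed for different precursors. Of the 26 sequences, 9 were listed as in miRBase, 5 differed from the miRBase entry and 12 were listed as new.

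The members varied in length, first base and GC content, none of which the choice by number used. In length, 15 were 21 nt, 5 were 24 nt, 4 were 22 nt, 1 was 23 nt and 1 was 19 nt. The first base was T (U in the RNA) in 16 of the 26 members (61.5%), against 34.5% of all 889 sequences. The share varied with length. Among 21-nt sequences it was 11 of 15 members (73.3%) against 46.7% of all, and among 24-nt sequences it was 0 of 5 members against 9.6% of all. A 5′ U is the base that plant AGO1, the main miRNA effector, favours. The GC content of the members lay between 23.8% and 57.1%, with a median of 37.8%.

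The 26 sequences lay in 18 precursors, and all coordinates below are those of the table on the B. rapa v3.0 genome. At 15 of these precursors, RefSeq (assembly CAAS_Brap_v3.01) places a miRNA gene at identical coordinates. It places none at the precursors of MIR9568-p5 and MIR9568-p3. Precursors inside the span of a protein-coding gene numbered 7, among them those of MIR9408, MIR9554, MIR9556 and MIR9558. The annotation used gives neither exons nor strand, so exonic and intronic positions were not told apart. MIR9563b lay inside an annotated pseudogene and MIR9569 inside a long noncoding RNA gene.

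For 9 hairpins, 2 sequences were listed, 1 named for each arm. Dicer-like cutting leaves 3′ overhangs of 2 nt at each end of the duplex, and exactly this geometry was found for 2 of the 9, miR9408 and miR9557, in the fold given in the table. The duplex of miR9556 had overhangs of 2 and 0 nt, since its 5p sequence was listed 2 bases shorter than in miRBase. The overhangs were -1 and 2 nt for miR9554, 5 and 4 nt for MIR9555a, 12 and 11 nt for MIR9558, and -10 nt at both ends for MIR9563b, where a negative value means that the 3′ end fell short of the opposite 5′ end. In MIR9552b and MIR9563a the sequences of the pair were not paired with each other at all.

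**Figure D1:**
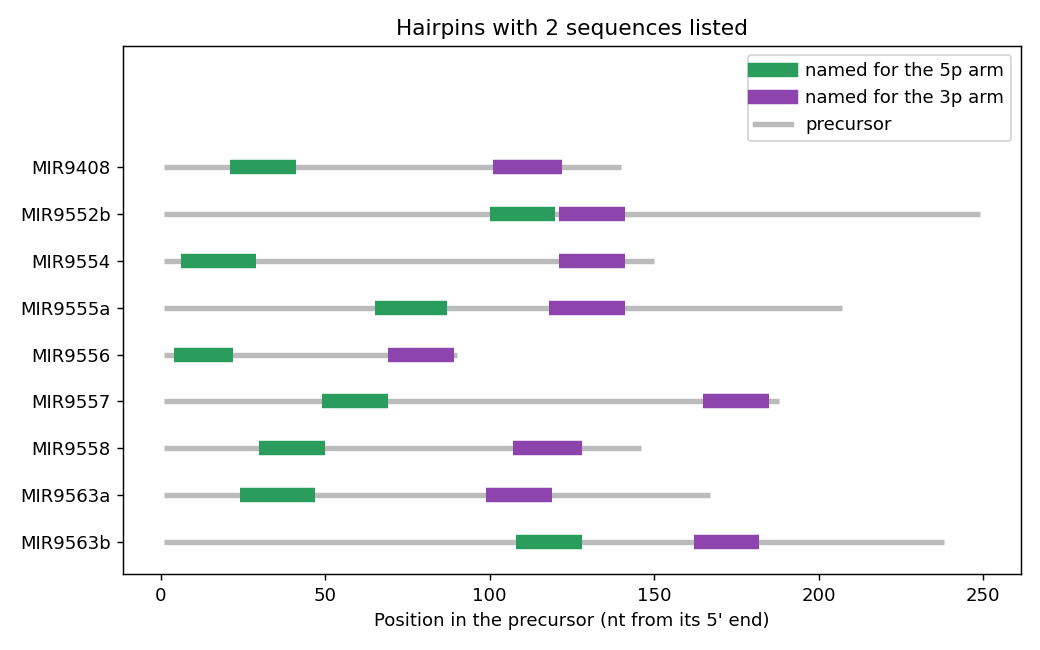
Positions of the listed sequences in the 9 hairpins that had 2 of them, in nt from the 5′ end of the precursor (grey), with sequences named for the 5p arm in green and for the 3p arm in purple. The sequences of MIR9552b lie side by side at positions 100 to 120 and 121 to 141, whereas those of MIR9408 are 59 nt apart.

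The MIR9552b hairpin is shown because its sequences form 1 unbroken stretch of 42 nt, from position 100 to 141 of the precursor (A09, 18283272 to 18283520, minus strand). The lower-case part is the sequence named p5 and the capitals are miR9552b-3p.
MIR9552b stretch: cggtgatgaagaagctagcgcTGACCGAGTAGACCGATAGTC
There was no base between them, and both lay on the 3′ side of the hairpin, against the label p5 of the first. RefSeq places the miRNA genes MIR9552B and MIR9552A over this precursor.

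Mismatches between a listed sequence and its own precursor were found for 11 of the 26 members, and the other 15 matched throughout. A substitution is written with the base of the precursor, the position from 1 at the 5′ end of the mature sequence, and the base listed. The miR9556-5p sequence carried A12T, shown as a capital in the listed sequence, and the corresponding precursor (A07, 25227672 to 25227761, minus strand) has 90 nt.
miR9556-5p: gtcaattggtgTtagtagt
In miR9557-3p the substitution was G6A, inside the seed, and in miR9554-3p it was C2T, also inside the seed. MIR9563a-p5 carried C22A and MIR9563a-p3 carried A21C, both near the 3′ end. The origin of these mismatches was not tested.

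Across the series, the libraries held 589061 to 771529 miRNA reads in the Ver group and 749852 to 968483 in the Nor group, with 493 to 521 sequences detected per Ver library and 603 to 689 per Nor library. These totals count only reads placed in the miRNA table. Fragments of 18 nt that end in CCA, as tRNA ends do, took 1.14% to 1.45% of the reads in Ver and 5.15% to 7.14% in Nor libraries, and without them 10 of 16 members tested were called, beside 63.0% of all sequences in that fit. The test was the quasi-likelihood test of edgeR on reads per sequence, fitted to the whole table, and a Benjamini-Hochberg adjusted p under 0.05 was called. Levels are given as RPM, reads per 1e6 reads of the scaled miRNA total, and log2 fold changes are Ver over Nor.

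The members were a small part of the miRNA population, and their summed share was smaller in Ver. They held 0.23%, 0.235% and 0.183% of the miRNA reads in Ver libraries, against 0.379%, 0.341% and 0.375% in Nor libraries. The means were 0.216% ± 0.0286 in Ver and 0.365% ± 0.0206 in Nor (SD, n = 3 each), and the groups did not overlap. A single sequence, miR9408-3p, held 53.2% of all member reads over the 6 libraries, and it ranked only at place 51 among all sequences by summed reads. The lower summed share in Ver rested on this sequence. Without its reads, the share of the members was not lower in Ver on average. The groups then overlapped, and Ver 3 was below every Nor library.

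Of the 26 members, 25 had reads in some library, and MIR9555b-p5 was listed at 0 throughout. The low-count filter left 15 members in the test and 11 outside it. Of the 15, 5 were called higher in Ver (miR9556-5p, MIR9552b-p5, MIR9563a-p3, miR9552b-3p and miR9569-3p) and 4 were called lower (miR9408-3p, miR9408-5p, MIR9563a-p5 and MIR9568-p5), and 6 were not called. That is 9 of 15, or 60%, beside 61.0% of the 405 sequences tested in the whole table, of which 28.1% were called higher and 32.8% lower. The share called among the members was thus near that of the table. Of those called, MIR9552b-p5 and MIR9563a-p3 passed the filter only through Ver and MIR9568-p5 only through Nor, the groups in which they were high. The groups did not overlap in RPM for 10 of the 15 members, beside 71.4% of all sequences tested. With the thresholds of the study, an absolute log2 fold change over 1 and an unadjusted p of at most 0.05, 7 members passed, beside 43.2% of all sequences tested. The median log2 fold change was -0.32 over the 15 members and -0.19 over all 405.

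Other named sets of miRNAs gave other counts. Among the 26 tested sequences of other Brassica-lineage numbers (miR1140, miR5711 to miR5726 and miR6028 to miR6036), 5 were called higher and 16 lower, with a median of -0.65. Among the 168 tested sequences of conserved families, 64 were called higher and 55 lower, with a median of -0.02. Differences between the sets were not tested.

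**Figure D2:**
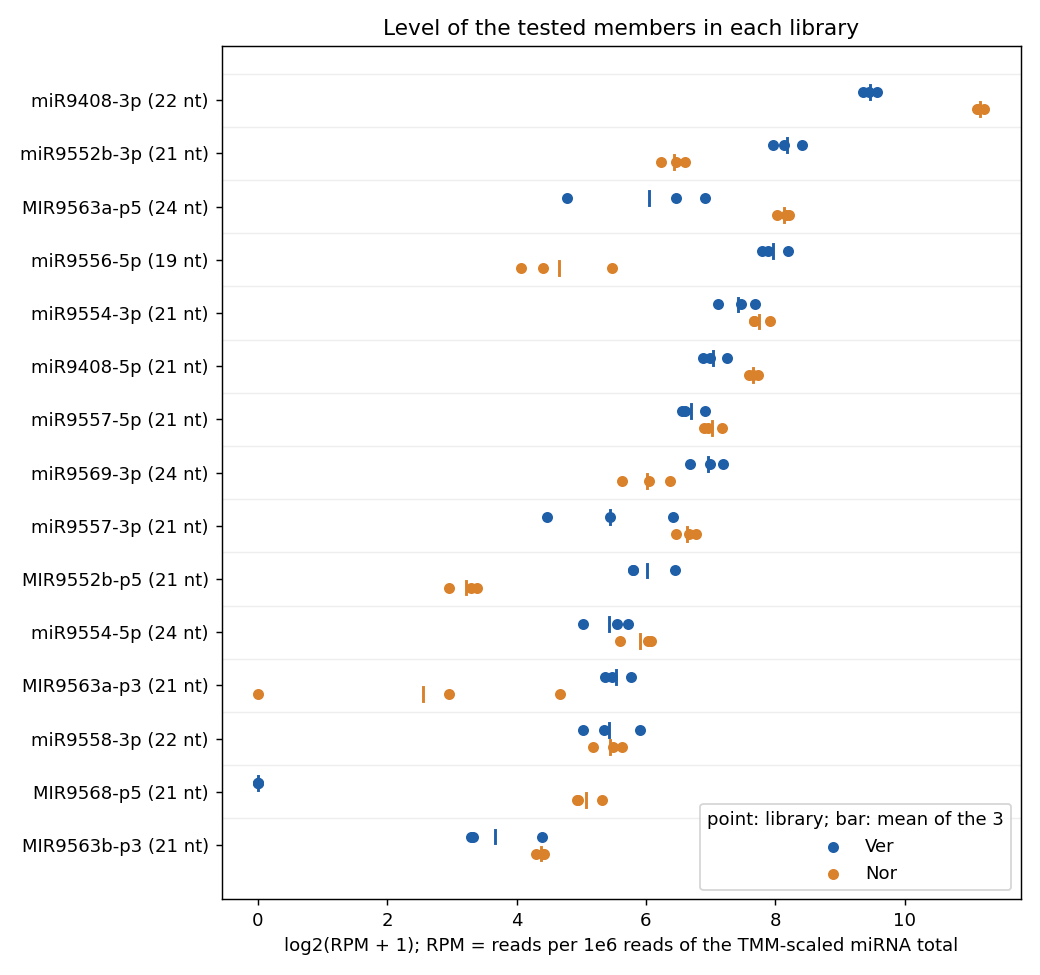
Level of each of the 15 tested members in each library, as log2(RPM + 1), with Ver points in blue above Nor points in orange and a bar at the mean of each 3. The 3 Ver libraries of miR9408-3p sit at 656 to 760 RPM, all left of the Nor libraries at 2211 to 2399 RPM, and those of miR9556-5p lie to the right of Nor.

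The most abundant member, miR9408-3p (22 nt), fell in Ver and had the smallest adjusted p of the members. It is the 3p strand of a hairpin on A01 (9463256 to 9463395, minus strand) that lies inside the gene LOC117134591. It had 543, 457 and 373 reads in Ver 1 to 3, against 2290, 1630 and 1780 reads in Nor 1 to 3. In RPM this was 696, 760 and 656 in Ver libraries and 2248, 2211 and 2399 in Nor libraries. Every Ver library was far below every Nor library, and the libraries within a group were close together. Both strands of this hairpin were called lower. The log2 fold change was -1.70 ± 0.0868 (SE), at an adjusted p of 2.78e-07 in edgeR.

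The other strand of the same duplex, miR9408-5p (21 nt), was less abundant and also fell in Ver. It had 91, 76 and 86 reads in Ver libraries, against 215, 147 and 142 in Nor libraries, or 117, 126 and 151 RPM against 211, 199 and 191 RPM. The groups did not overlap, although the gap between the highest Ver and the lowest Nor library was narrow. The log2 fold change was -0.62 ± 0.144 (SE), and edgeR gave an adjusted p of 0.00467. Without Nor 1 the change was -0.49 with an adjusted p of 0.0530, which misses the threshold.

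Both sequences of MIR9552b, which lie side by side as shown above, rose in Ver. For miR9552b-3p, the reads were 266, 150 and 160 in Ver libraries and 98, 64 and 55 in Nor libraries, which gave 341, 250 and 281 RPM against 96.2, 86.8 and 74.1 RPM. Each Ver library was well above each Nor library, and the log2 fold change was 1.76 ± 0.167 (SE), and edgeR gave an adjusted p of 1.53e-05. MIR9552b-p5 was scarcer, with 67, 33 and 31 reads in Ver libraries and 9, 7 and 5 in Nor libraries. Its log2 fold change was 2.94 ± 0.358 (SE), and edgeR gave an adjusted p of 7.53e-05, with few Nor reads behind it. MIR9552b-p5 thus passed the low-count filter through its Ver reads alone, the group in which it was high.

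miR9556-5p, the 19-nt sequence with A12T, rose in Ver. It had 228, 142 and 126 reads in Ver libraries, against 16, 32 and 15 in Nor libraries, or 292, 236 and 222 RPM against 15.7, 43.4 and 20.2 RPM. The highest Nor library, Nor 2, was still well below the lowest Ver library. The log2 fold change was 3.27 ± 0.316 (SE), and edgeR gave an adjusted p of 1.60e-05. Without Nor 2 it was 3.86. The opposite strand, miR9556-3p (21 nt), did not pass the low-count filter, with 18, 7 and 13 reads in Ver libraries and 0, 0 and 6 in Nor libraries.

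The MIR9563a hairpin (A01, 26460370 to 26460536, minus strand) was the 1 hairpin whose sequences were called in opposite directions. MIR9563a-p5 (24 nt) had 68, 72 and 15 reads in Ver libraries, against 291, 191 and 218 in Nor libraries. In RPM this was 87.2, 120 and 26.4 in Ver libraries and 286, 259 and 294 in Nor libraries, so Ver 3 was low among the Ver libraries and no Ver library reached a Nor one. The log2 fold change was -1.83 ± 0.355 (SE), and edgeR gave an adjusted p of 0.00159.

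MIR9563a-p3 (21 nt) had 34, 32 and 23 reads in Ver libraries, against 25, 5 and 0 in Nor libraries. The Ver libraries were close together, and the Nor libraries were widely spread. It passed the low-count filter through the Ver group, and its Nor reads alone would not have passed. The log2 fold change was 2.02 ± 0.756 (SE), and edgeR gave an adjusted p of 0.0427. This call was kept in 7 of 15 alternatives, with adjusted p between 0.00462 and 0.159. The size rested on Nor 1, without which the log2 fold change was 3.77. It was lost without Ver 1, Ver 2, Ver 3, Nor 2 or Nor 3 (adjusted p 0.0867, 0.132, 0.0723, 0.159 and 0.0579), and with the replicate number as a block the adjusted p was 0.0694. It was also lost with library totals alone (adjusted p 0.0524) and with no low-count filter (0.124).

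MIR9568-p5 (21 nt) was read in the Nor group alone. It was listed on 2 rows, for precursors on A06 (9937450 to 9937571, minus strand) and A02 (11747527 to 11747618, plus strand), and its rows were added. In the fold given, 5 of its 21 bases were paired in the A06 precursor, where it starts at base 1. In the A02 precursor 15 were paired. It was listed at 0 in all 3 Ver libraries and had 30, 22 and 29 reads in Nor libraries. It thus passed the low-count filter through its Nor reads alone, and edgeR gave an adjusted p of 3.08e-04 on the listed values. A listed 0 may stand for up to 5 reads. Taken against 5 reads in each Ver library, the level was 4.18-fold lower in Ver with the rows added. With the reads of 1 row only it was 2.09-fold lower, so 4.18-fold is not a lower bound. The rule by which reads were divided over rows was not stated.

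The other miR9568 members are shown with it because 2 of the 3 share their sequence. The capitals mark the stretch of 21 nt that MIR9568-p5 and MIR9568-p3 have in common.
MIR9568-p5: AAGAGATCCGCATTAATCATG
MIR9568-p3: tAAGAGATCCGCATTAATCATG
MIR9568-p3 differed by 1 additional T at its 5′ end and was listed for yet another precursor, on A03 (5246799 to 5246944, minus strand). It had 10 reads in Nor 1 and was listed at 0 in the other libraries. The registered arm, miR9568-3p, was listed for a different precursor. The 3′ part of its sequence matches the 5′ part of MIR9568-p3 and MIR9568-p5 except at 1 base, T against C. Whether these sequences share an origin was not tested. miR9568-3p was read in the Ver group alone, with 11, 8 and 7 reads in Ver libraries and 0 in all Nor libraries. It did not pass the low-count filter, and its level was at least 2.16-fold higher in Ver, taken against 5 reads in each Nor library.

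miR9569-3p (24 nt; A03, 29064437 to 29064628, minus strand) rose in Ver by a smaller step. It had 79, 87 and 72 reads in Ver libraries, against 66, 60 and 36 in Nor libraries, or 101, 145 and 127 RPM against 64.8, 81.4 and 48.5 RPM. The lowest Ver library was above the highest Nor library. The log2 fold change was 0.93 ± 0.237 (SE), and edgeR gave an adjusted p of 0.00756.

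**Figure D3:**
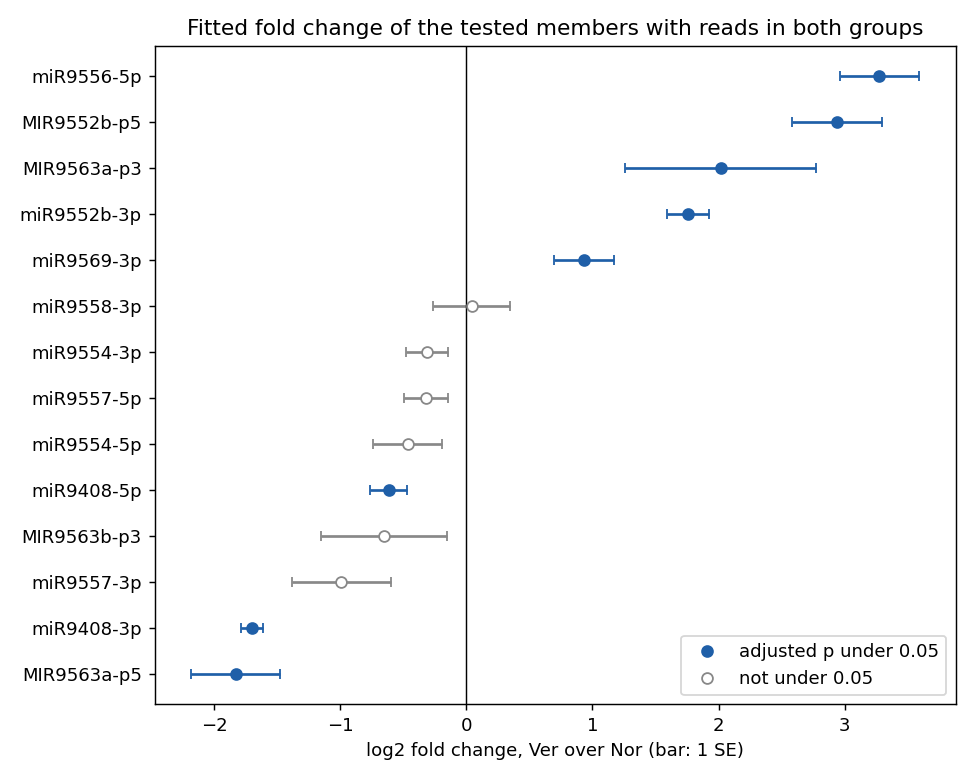
Log2 fold change of Ver over Nor for the 14 tested members with reads in both groups, with bars of 1 SE, filled where the adjusted p was under 0.05. miR9556-5p lies at 3.27 and MIR9563a-p5 at -1.83, and the 6 open symbols were not called.

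The remaining 6 tested members were not called. Those of miR9554 (A06, 23185438 to 23185587, plus strand) had overlapping groups for both strands. miR9554-3p had 138, 123 and 78 reads in Ver libraries and 207, 149 and 178 in Nor libraries, with a log2 fold change of -0.31 ± 0.164 (edgeR, adjusted p 0.123). miR9554-5p, a 24-nt form that was 3 bases longer at its 5′ end than in miRBase, gave -0.47 ± 0.274 (adjusted p 0.161).

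The pair of miR9557 (A07, 1185458 to 1185645, minus strand) had the 5p sequence as the more abundant of its strands. miR9557-5p gave -0.32 ± 0.174 (edgeR, adjusted p 0.132), with overlapping groups. miR9557-3p had 33, 51 and 12 reads in Ver libraries, against 102, 64 and 80 in Nor libraries, without overlap in RPM. Its log2 fold change was -0.99 ± 0.396 (adjusted p 0.0535), and it was called in 3 of 16 alternatives, among them the fit without Ver 2 (adjusted p 0.00628).

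miR9558-3p had 46, 24 and 18 reads in Ver libraries and 45, 26 and 36 in Nor libraries, with a log2 fold change of 0.04 ± 0.307 (edgeR, adjusted p 0.908). Its sign changed without Ver 1 or Nor 2, at -0.20 and -0.017. MIR9563b-p3 had 7, 12 and 5 reads in Ver libraries and 19, 15 and 15 in Nor libraries, with a log2 fold change of -0.65 ± 0.501 (adjusted p 0.272). For these 6 members the test does not show that the levels were alike.

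Members outside the test had at most 28 reads in any library. miR9553-5p had 5 reads in Nor 2 and was listed at 0 in the other libraries. The other members with reads outside the test are given here or above by their values, and a listed 0 may stand for up to 5 reads. Those of miR9555a (A07, 28639710 to 28639916, minus strand) were on the Nor side, with MIR9555a-p5 at 0 in every Ver library against 6, 16 and 16 reads in Nor libraries, and miR9555a-3p at 0 against 18, 0 and 23. MIR9563b-p5 had 5, 0 and 0 reads in Ver libraries and 28, 10 and 23 in Nor libraries, and its level was at least 3.06-fold lower in Ver, taken against 5 reads in each Ver library. On the Ver side, MIR9559-p5 had 11, 0 and 8 reads, MIR9562-p3 had 9, 5 and 0, and MIR9558-p5 had 6, 5 and 0, with 0 in all Nor libraries.

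When the sequences of a number were added, 10 numbers could be tested and 7 were called, beside 61.5% of all features in that fit. When they were added per number and arm, 14 sums could be tested and 9 were called, beside 61.4% of all features in that fit. One of the 9, the 3p sum of miR9563 (log2 fold change 0.92, adjusted p 0.0389), was lost in 8 of 16 alternatives, among them the replicate block (adjusted p 0.0748) and DESeq2 (0.0513). The sums of miR9552, miR9556 and miR9569 were higher in Ver, and those of miR9408, miR9555, miR9563 and miR9568 were lower. The sum of miR9555, whose sequences were not tested singly, was listed at 0 in all Ver libraries and had 24, 16 and 39 reads in Nor libraries. It passed the low-count filter through the Nor reads alone and reached an adjusted p of 0.00102 in edgeR. With a listed 0 set to 5 reads, its log2 fold change was -1.09 (edgeR, adjusted p 0.0251). The sum of miR9563 had a log2 fold change of -1.23 (adjusted p 0.00348), and MIR9563a-p5 gave most of its reads. The sum of miR9568 had -1.40 (adjusted p 0.00755). It joined sequences of different precursors that went opposite ways, MIR9568-p5 read in Nor alone and the registered miR9568-3p read in Ver alone. The direction of the sum is thus not that of miR9568-3p. The call was lost without Nor 1 (adjusted p 0.0533), with the replicate block (0.0501), and with each sequence taken as listed on 1 row (log2 fold change -0.50, adjusted p 0.263). In the last of these, MIR9568-p5 counts only a part of its reads. The sum of miR9557 gave -0.53 with an adjusted p of 0.0506.

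**Figure D4:**
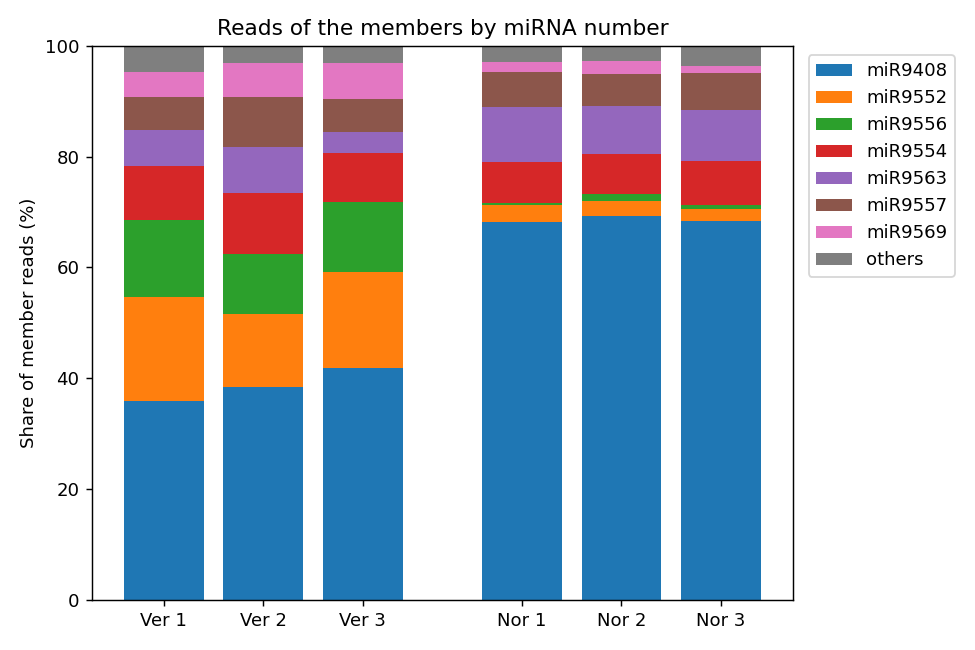
Share of all member reads held by each miRNA number in each library, Ver libraries on the left and Nor libraries on the right, with the numbers of fewest reads joined as others. miR9408 holds 38.7% of member reads on average in Ver and 68.6% in Nor, while miR9552 and miR9556 are broader in Ver.

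The make-up of the member reads differed accordingly. The sum of miR9408 held 38.7% ± 3.01 of member reads in Ver and 68.6% ± 0.562 in Nor (SD, n = 3 each). The sum of miR9552 held 16.5% ± 2.92 in Ver and 2.61% ± 0.415 in Nor. The sum of miR9556 held 12.4% ± 1.59 in Ver and 0.81% ± 0.41 in Nor. Because these are shares, a fall of miR9408-3p raises the others.

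By length, reads of 22 nt were 34.5% of member reads in Ver and 64.4% in Nor, and reads of 21 nt were 42.8% in Ver and 22.8% in Nor. The 19-nt class was miR9556-5p alone, at 11.5% in Ver and 0.739% in Nor. Reads of 24 nt held 11.2% in Ver and 11.6% in Nor. These shares rest largely on miR9408-3p, and without it the difference for 21 nt was 1.63 percentage points instead of 20, and that for 24 nt -14.8 instead of -0.396.

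The share of reads named for the 5p arm was compared for the 5 numbers that had sequences named for both arms and enough reads. For miR9552 this is no balance of arms, since both of its sequences lay on the 3′ side. Nor is it a balance of duplex strands for miR9563, whose reads come from the hairpins MIR9563a and MIR9563b. The sequences of MIR9563a were not paired with each other, and those of MIR9563b had overhangs of -10 nt at both ends. The smallest p that an exact permutation test of 3 against 3 libraries can give is 0.1, so none of these could pass 0.05. For miR9408, the 5p arm held 15.8% ± 2.56 of the reads in Ver and 8.08% ± 0.62 in Nor (SD, n = 3 each), without overlap (two-sided exact permutation test, p 0.1, adjusted p 0.125). Both strands of this duplex were called lower in Ver, as given above.

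For miR9563, the 5p share was 53.7% ± 16.3 in Ver and 91% ± 3.13 in Nor, and for miR9552 it was 18.1% ± 1.95 in Ver and 8.87% ± 0.859 in Nor, each with an exact permutation p of 0.1. In the first of these, Ver 3 stood apart at 34.9%, against 64% and 62.1% in Ver 1 and Ver 2. For miR9557 it was 69.8% ± 11.5 in Ver and 56.7% ± 1.26 in Nor (exact permutation p 0.1), a difference of 13.1 percentage points that was 7.29 without Ver 3. For miR9554 it was 19.9% ± 0.998 in Ver and 21.7% ± 2.88 in Nor (exact permutation p 0.4). The groups overlapped for miR9554 alone.

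**Figure D5:**
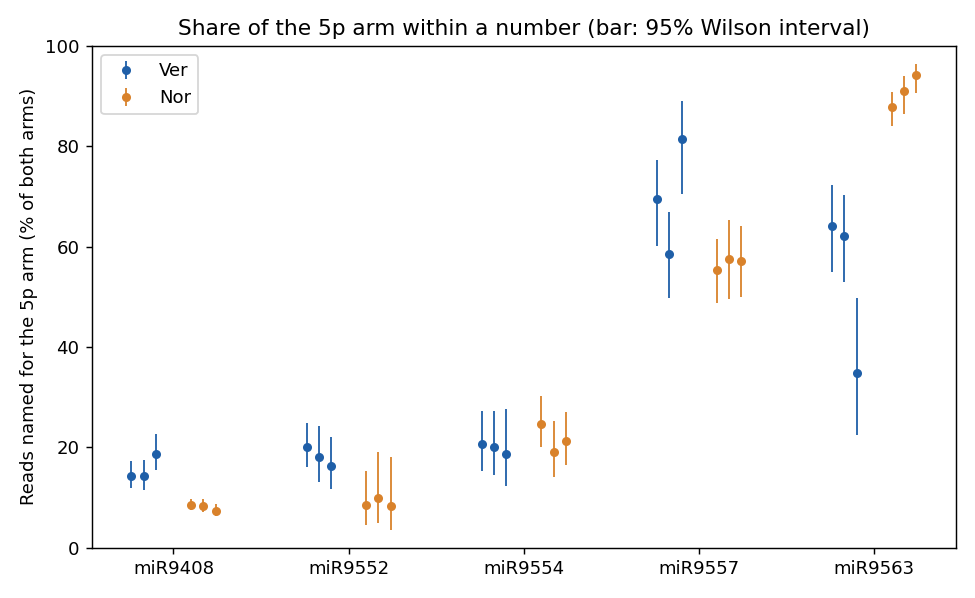
Share of the reads of a number that were named for its 5p arm, for the 5 numbers compared, with Ver libraries in blue left of Nor libraries in orange and bars of 95% Wilson intervals for counting error. The 3 Ver points of miR9563 lie at 64%, 62.1% and 34.9%, below the Nor points at 87.9% to 94.1%.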

How the data were processed

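Small RNA libraries of 3 Ver and 3 Nor seed samples were grouped by their labels. The authors removed adapters, low-complexity reads and reads of common RNA families or repeats, kept 18 to 25 nt, and matched unique sequences by BLAST (version not given in the sources used here) to miRBase 21.0 and the B. rapa v3.0 genome. The deposited raw values are estimated counts, which were rounded here. The second set of deposited columns is a normalized signal, each raw value times 1 factor per library, and served only for alternatives. The deposited hairpin free energy is a score in kcal/mol and was read only as a label of the hairpin. Of the per-sample columns, 0 could not be mapped.

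Rows of the 889 distinct sequences were added over all 1159 rows. Of 2407 nonzero values of sequences on 1 row, none was 1 or 2, 145 were under 5 and 233 were exactly 5. No minimum was stated, and a listed 0 was taken, as a working assumption, to stand for up to 5 reads. The whole table was fitted with edgeR 4.0.16 in R 4.3.3 (TMM factors 0.949 to 1.052, default low-count filter with a minimum count of 10, group as the only term), with Benjamini-Hochberg adjustment over all 405 sequences tested and a biological coefficient of variation of 0.146. The script was tested on simulated data first. Shares were compared with scipy 1.17.1 and are given with 95% Wilson intervals, which cover counting error only, since amplified reads are not separate molecules. The depth, 589061 to 968483 miRNA reads per library, sets what low members can show. The replicates within a group were separate dishes per the study, which does not state whether the groups shared dishes.

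Every member that passed the low-count filter was named, with values per library for those called and for the 3 most abundant, and other members were given by counts, with values for the other arm of a named member. Alternatives were library totals only, DESeq2 1.42.0 size factors, the factors of the authors, limma 3.58.1 on log2 of the normalized value plus 1, other low-count filters, 1 row per sequence, a replicate block, no 18-nt CCA fragments, the thresholds of the study, and each library left out. The members and lists were chosen with earlier results of these data known. For the calls, setting a listed 0 to 5 reads was added after the data were seen.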

Additional observations from a re-analysis of the deposited data

How the results depend on the processing

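The 9 called members kept their direction under every alternative that tested them, and 7 to 12 members were called over the alternatives, of 11 to 25 tested, while 28.0% (no low-count filter) to 71.6% (at least 10 reads in every library) of all sequences tested were called. With at least 10 reads in every library, 3 members were called higher in Ver, since that filter removes scarce members. Leaving out 1 library gave 10 to 12 members called of 18 to 20 tested (49.4% to 55.7% of all sequences), 4 to 6 higher and 4 to 7 lower, the 7 without Ver 2, where 12 of 20 members were called beside 55.6% of all. The threshold of the study called 7 members, beside 43.2% of all sequences. Of the results for single sequences, numbers and arms, 577 were on the same side of the threshold, 21 were lost, 12 gained and 6 reversed. All reversals concerned miR9558, which was never called. Leaving out 1 library gave -0.20 to 0.29 for miR9558-3p (-0.017 without Nor 2), -0.035 to 0.50 for the sum of the number and -0.22 to 0.28 for its 3p arm (-0.017 without Nor 2), and the arm gave -0.016 with at least 10 reads in every library. The cause was not tested. Without miR9408-3p, the differences in length shares (Ver minus Nor, percentage points) were 15.1 for 19 nt, 1.63 for 21 nt, -0.661 for 22 nt, -1.23 for 23 nt and -14.8 for 24 nt, against 10.8, 20, -29.9, -0.452 and -0.396 with it.

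Another scaling moved the median of all sequences, which was -0.19 with TMM, -0.09 with DESeq2 size factors and -0.06 with the factors of the authors. The labels share the replicate numbers 1 to 3, and deviations of same-numbered libraries correlated at 0.134, -0.0791 and 0.0265. With 3 libraries per group, these values cannot decide whether same-numbered libraries were paired. The study divided the seeds into groups after germination in dishes, and it states no pairing by number. With the replicate block, 8 members were called instead of 9, 6 numbers instead of 7 and 8 arms instead of 9, and 204 sequences of the table instead of 247. Members with few reads are limited by depth, since 5 reads correspond to 4.91 to 8.79 RPM.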

Other observations

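Several members shared stretches with other sequences of the table that carry no number of these ranges and were predicted from genome hairpins. MIR9562-p3, which had at most 9 reads in any library, lies on A02 (22818344 to 22818492, plus strand), and a predicted hairpin of the opposite strand overlaps it by 82 nt. The sequences predicted from that opposite hairpin were far more abundant than MIR9562-p3 and were read in Ver libraries alone. PC-3p-19661_302 had 264, 168 and 192 reads in Ver libraries and 0 in all Nor libraries, and PC-5p-39941_114 had 107, 76 and 89 in Ver libraries and 0 in all Nor libraries. The capitals mark the 15 nt over which MIR9562-p3 and PC-5p-39941_114 are complementary.
MIR9562-p3: TTCACAACTGCATAAttcact
PC-5p-39941_114: TTATGCAGTTGTGAAtaaaca

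MIR9563b-p3, which was not called, is contained whole in the 24-nt sequence PC-3p-18308_329, shown with the common 21 nt in capitals.
MIR9563b-p3: TCGGTTTTTAGCTTTTTTAGT
PC-3p-18308_329: aaaTCGGTTTTTAGCTTTTTTAGT
The longer sequence had 77, 122 and 85 reads in Ver libraries and 29, 11 and 18 in Nor libraries, whereas the shorter one had 7, 12 and 5 in Ver libraries and 19, 15 and 15 in Nor libraries. MIR9563a-p5 shared 14 to 20 nt on the same strand with 7 predicted sequences, each of at most 22 reads in a library. MIR9563a-p3 and MIR9563b-p5 were complementary over 15 nt. How reads were divided among such related sequences was not tested.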
